A study of Mus musculus with 8 samples.

Results

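Molecular chaperones are proteins that help other proteins fold and keep them from clumping. HSP70 proteins bind unfolded stretches in cycles of ATP hydrolysis, DnaJ proteins (J-domain cochaperones) bring clients and start the hydrolysis, and nucleotide exchange factors such as HSP110 and BAG proteins end the cycle. Many chaperone genes are induced by heat shock factors when misfolded proteins build up in the cytosol, and those of the endoplasmic reticulum by the unfolded protein response. Macrophages need the endoplasmic reticulum chaperone HSP90B1 to fold Toll-like receptors and integrins.

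The 75 genes described here are those measured whose symbol begins with Hspa, Hspb, Hspd, Hspe, Hsph, Hsp90 or Dnaj, with Hsf2, Bag1 and Bag3, out of 19938 genes with a probe set of their own. Hsf1 and Hsp90ab1, which the same choice would take, had no probe set named for them alone and were not analysed here, and Hspa1b was measured only by a probe set shared with Hspa1a. By role the genes were 13 of the HSP70 and HSP110 families, 2 of the HSP90 family, the 2 mitochondrial chaperonin genes, 7 small heat shock proteins, 4 DNAJA, 13 DNAJB and 28 DNAJC cochaperones, 2 BAG genes and 1 heat shock factor. The name pattern also took 3 genes that are no heat shock proteins: Hspb11, a component of intraflagellar transport, Hspbp1, a nucleotide exchange factor of HSP70, and Hspbap1, which encodes an HSPB1-associated protein.

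RNA came from macrophages grown from mouse bone marrow for 10 days with M-CSF (10 ng/ml), starved of serum overnight and then kept for 4 h with recombinant murine IL-6 at 50 ng/ml. The 4 IL6raKO cultures were from IL6ralpha flox/flox LysMCre tg/wt mice, in which the Cre recombinase is made by myeloid cells, and the 4 Ctrl cultures from IL6ralpha flox/flox mice without Cre. Each was hybridised to 1 Affymetrix whole-transcript array, and values are log2 expression as deposited. Both groups carried the loxP-flanked allele and both received IL-6, so no array shows the cells before IL-6. Cre was carried by the IL6raKO group alone, so effects of Cre itself cannot be told apart from loss of the receptor. The labels call the arrays biological replicates without naming animals, so p-values measure the spread between these cultures, and the number of arrays limits the precision. IL-6 signals through the receptor encoded by Il6ra to the transcription factor STAT3, and the comparison asks whether cells short of that receptor express chaperone genes differently after IL-6.

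The targeted gene Il6ra read 7.75, 8.10, 7.91 and 7.92 in IL6raKO replicates 1 to 4, against 8.43, 8.40, 8.40 and 8.45 in Ctrl replicates 1 to 4, so that the groups did not overlap. The IL6raKO mean stood at 70.6% of the Ctrl mean (difference -0.50, 95% confidence interval -0.66 to -0.34, limma adjusted p = 0.0607) on a probe set whose place relative to the deleted exons was not analysed here. For Stat3 too (difference -0.57), no IL6raKO array reached the lowest Ctrl array. All 8 macrophage markers were measured, and their mean log2 level lay between 11.68 and 11.73 in IL6raKO and between 11.65 and 11.79 in Ctrl. Markers of mast cells and basophils had differences below 0 for 8 of 8 genes, with mean levels of 5.91 to 6.54 in IL6raKO and 6.13 to 6.81 in Ctrl. Markers of other cells lay the same way for 4 of 4 B cell genes (mean levels of 5.20 to 5.30 in IL6raKO and 5.36 to 5.44 in Ctrl), 5 of 5 T and NK cell genes (5.24 to 5.31 in IL6raKO and 5.29 to 5.44 in Ctrl) and 5 of 5 stromal genes (6.24 to 6.34 in IL6raKO and 6.36 to 6.38 in Ctrl), and for 4 of 7 neutrophil genes (5.92 to 6.21 in IL6raKO and 6.03 to 6.34 in Ctrl). Outside mast cells and basophils, these mean levels of other cells lay near or below the array medians (6.31 to 6.35 over all probe sets). Single markers lay above them, among others S100a9 (6.89 in IL6raKO and 7.11 in Ctrl), Ngp (6.93 and 6.91), Col1a1 (7.22 and 7.26) and Col1a2 (6.81 and 6.95). Differences were above 0 for 45.8% of all genes and for 57.1% of genes above the median level, so dimmer genes lay below 0 more often. The part of the cell markers in any difference below was not tested. Of the 8 arrays, that of Ctrl replicate 4 stood apart: in a principal component analysis of all genes it scored 21.5 on the leading component, where the other 7 arrays scored -6.6 to 4.82.

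No chaperone gene passed the test between genotypes. In limma, 0 of the 75 genes were called in either direction (adjusted p under 0.05), beside 6 of 19938 genes in the whole table (0.0301%), all 6 lower in IL6raKO. The lowest adjusted p among the 75 was 0.616, and the differences ran from -0.19 for Dnajc5g to 0.29 for Hspb11. In bulk RNA, fewer cells of a type and less RNA per cell cannot be told apart, which holds for every value here. At an unadjusted p under 0.05 there were 4 of the 75 genes, beside 7.28% of all genes. Of these, 2 of 75 were lower in IL6raKO (Dnajc5g and Dnajc6), beside 4.54% of all genes. In the other direction 2 of 75 were higher (Hspa1l and Hspb11), beside 2.74% of all genes. These 4 genes had mean levels of 5.72 (Dnajc5g), 5.97 (Dnajc6), 6.16 (Hspb11) and 6.44 (Hspa1l), near or below the array medians (6.31 to 6.35 over all probe sets). Quantile normalization applied again gave 0 lower and 2 higher, beside 3.36% and 3.32% of all genes. Centring the arrays on their 75th percentile gave 3 lower and 2 higher, beside 7.49% and 1.36% of all genes. Groups did not overlap for 1 gene below Ctrl (Bag1, beside 2.37% of all genes) and for 1 gene above it (Hspa1l, beside 2.07%).

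**Figure D1:**
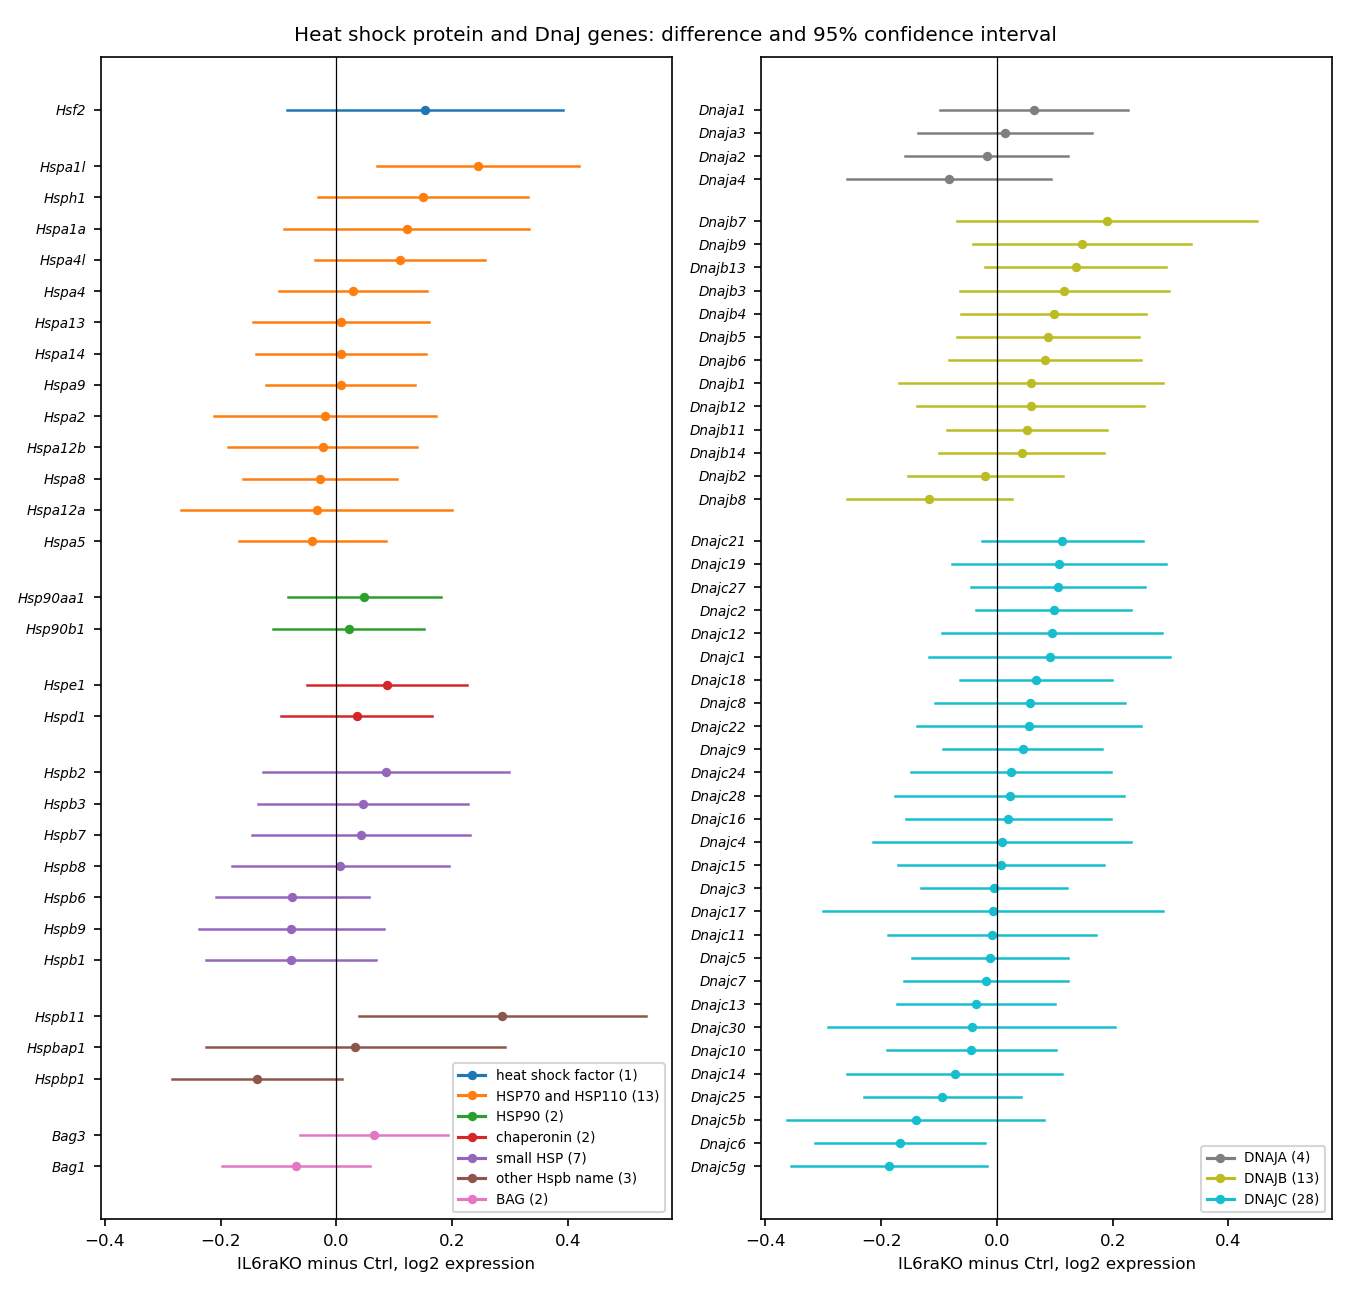
Difference of each of the 75 genes, IL6raKO minus Ctrl in log2 expression (horizontal axis), as points with 95% confidence intervals from limma, ordered by role and size. Most intervals cross 0, and those of Hspa1l, Hspb11, Dnajc6 and Dnajc5g do not, although none of these passed adjustment over all genes.

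The intervals show how precisely the arrays measured each difference. The 95% confidence intervals of 65 of the 75 genes lay within 0.3 of 0 on the log2 scale, a ratio of 1.23 either way, and those of 72 of 75 lay within 0.4. Over all genes the same shares were 72.2% and 91.5%. Dnajb7, Hspa1l and Hspb11 reached past 0.4, and Hspb11 also past 0.5, to 0.53.

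Differences above 0 were more frequent than below, 48 of 75 against 45.8% of all genes, with a median of 0.02 for the 75 genes and -0.0097 for all genes. Centring the arrays on their 75th percentile gave medians of -0.0028 for the 75 genes and -0.04 for all genes. It shifts every gene alike, so the gap between them, 0.034, could not change. That gap was 0.018 after quantile normalization applied again and 0.012 among genes above the median level. Quantile normalization applied again gave 57.3% of the 75 above 0, beside 49.8% of all genes. Among genes above the median level, where 58 of the 75 fall, differences above 0 were found for 67.2% of these and for 57.1% of all such genes. Among the 4 classes of 7 or more genes, DNAJB had the highest share, with 11 of 13 above 0 and a median of 0.08, and the 28 DNAJC genes had 15 above 0 and a median of 0.0082. None of these shares was tested.

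**Figure D2:**
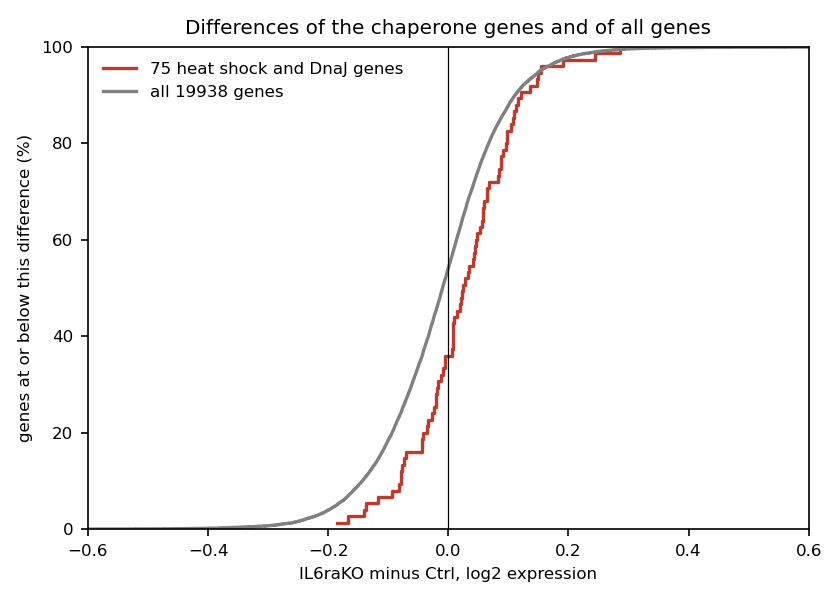
Cumulative share of genes (vertical axis, percent) at or below a given difference, IL6raKO minus Ctrl in log2 expression (horizontal axis), for the 75 heat shock and DnaJ genes and for all 19938 genes. The curve of the 75 genes is steeper, ending at -0.19 and 0.29, and crosses 50% slightly to the right of the other.

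Promoters show which of these genes carry the sequences that stress responses use. RefSeq promoter windows (build GRCm38.p6, 250 bases before to 50 after the annotated start) were at hand for 62 of the 75 genes. Heat shock factors bind inverted repeats of GAA, and a pair of units (GAANNTTC or TTCNNGAA, which read the same on both strands) was found in the windows of 16 of 62 genes (25.8%), beside 17% of all 27025 genes with a window. A run of 3 units (GAANNTTCNNGAA or TTCNNGAANNTTC, searched on both strands, each containing both pairs) was in 4 of 62 (6.45%), those of Hspd1, Hspe1, Hsph1 and Dnajb6, beside 0.662% of all genes. The endoplasmic reticulum stress element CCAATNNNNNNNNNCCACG, on either strand, was in 3 of 62 (4.84%), those of Hspa5, Hsp90b1 and Dnajc3, beside 0.137%. A STAT site TTCNNNGAA, which reads the same on both strands, was in 3 (Dnajc7, Dnajc13 and Dnajc27), a share of 4.84% beside 9.55% of all genes. These are matches of letters in a window, not shown binding sites.

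The stretches below, each 30 bases upstream of the start and read 5′ to 3′ on the strand of the gene, are shown because they hold letters that match these 2 stress elements. Capitals mark the units of the heat shock element in the first 4 and the endoplasmic reticulum stress element in the last 3, with the Hsp90b1 copy on the opposite strand.
Hspe1 (chr1:55088053-55088082, plus strand): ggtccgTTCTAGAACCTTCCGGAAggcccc
Dnajb6 (chr5:29735844-29735873, plus strand): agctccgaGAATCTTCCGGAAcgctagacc
Hspb1 (chr5:135887801-135887830, plus strand): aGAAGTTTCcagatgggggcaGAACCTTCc
Hspa1a (chr17:34972242-34972271, minus strand): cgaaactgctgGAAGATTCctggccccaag
Hspa5 (chr2:34772020-34772049, plus strand): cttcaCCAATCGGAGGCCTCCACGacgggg
Hsp90b1 (chr10:86705527-86705556, minus strand): gagtgCGTGGTGAGGCACGATTGGtgagtt
Dnajc3 (chr14:118937822-118937851, plus strand): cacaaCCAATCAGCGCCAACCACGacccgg

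No gene with either stress element passed the test between genotypes. The 16 genes with a pair of heat shock units had a median difference of 0.05, and the 46 without one a median of 0.02. Those with 3 units differed by 0.03 (Hspd1), 0.08 (Dnajb6), 0.09 (Hspe1) and 0.15 (Hsph1), and 0 of these 4 had an unadjusted p under 0.05. The Hspe1 stretch is also the Hspd1 promoter, since both windows hold the same 2 overlapping runs at the same coordinates and a start of Hspd1 lies 216 bases away on the opposite strand. Genes with the endoplasmic reticulum element differed by -0.04 (Hspa5), -0.005 (Dnajc3) and 0.02 (Hsp90b1). Those with a STAT site differed by -0.04 (Dnajc13), -0.02 (Dnajc7) and 0.11 (Dnajc27), with 0 of 3 at an unadjusted p under 0.05.

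Heat shock factors were represented by Hsf2, a partner of the main stress factor HSF1. Log2 expression of Hsf2 was 8.78, 8.64, 8.69 and 8.73 in IL6raKO replicates 1 to 4, against 8.79, 8.66, 8.57 and 8.20 in Ctrl replicates 1 to 4. All arrays but Ctrl replicate 4 lay within a narrow band, and the groups overlapped. The difference was 0.15 (SE 0.11, 95% confidence interval -0.08 to 0.39, limma adjusted p = 0.783), and it was 0.04 without Ctrl replicate 4 and 0.23 without Ctrl replicate 1.

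Among HSP70 genes, the stress-inducible Hspa1a stood at 6.29, 6.70, 6.59 and 6.59 in IL6raKO replicates 1 to 4, against 6.51, 6.37, 6.56 and 6.26 in Ctrl replicates 1 to 4. The lowest value of each group, that of IL6raKO replicate 1 and that of Ctrl replicate 4, lay below every value but each other. The other 3 IL6raKO arrays lay above every Ctrl array, so that the overlap of the groups came from IL6raKO replicate 1. The difference was 0.12 (95% confidence interval -0.09 to 0.33, limma adjusted p = 0.798). Leaving out IL6raKO replicate 1, an array singled out by its value, removes the overlap by construction. The difference was then 0.20, with an unadjusted limma p under 0.05, beside 2.16% of all genes higher at that p. It was 0.07 without Ctrl replicate 4 and 0.07 without IL6raKO replicate 2. A probe set shared by Hspa1a and its near-identical copy Hspa1b, which the array cannot tell apart there, read 7.72, 7.83, 7.68 and 7.78 in IL6raKO replicates 1 to 4, against 7.65, 7.70, 7.66 and 7.94 in Ctrl replicates 1 to 4. On that probe set the group means differed by 0.02, and Ctrl replicate 4, the lowest array for the Hspa1a probe set, was the highest.

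Hspa1l, a gene of the HSP70 family known for its expression in testis, was the 1 gene of the 75 with all IL6raKO values above all Ctrl values. Its log2 expression was 6.71, 6.42, 6.67 and 6.44 in IL6raKO replicates 1 to 4, against 6.34, 6.29, 6.38 and 6.25 in Ctrl replicates 1 to 4. IL6raKO replicates 2 and 4 lay just above the highest Ctrl array, and replicates 1 and 3 well above it. Its Ctrl values lay about the array medians (6.31 to 6.35 over all probe sets), so the gene was dim here. The difference was 0.24 (SE 0.08, 95% confidence interval 0.07 to 0.42), a ratio of 1.18, with an unadjusted limma p of 0.0102 that did not pass over all genes (adjusted p = 0.616). With any 1 array left out it stayed between 0.19 and 0.29. Leaving out an array cannot make groups overlap that do not overlap with all 8, so overlap in these fits says nothing more. Hspa1l starts 547 bases from Hspa1a on the opposite strand. Hspa1a, described above, overlapped between the groups through IL6raKO replicate 1, at 6.29, which for Hspa1l was the highest of the 8 arrays at 6.71. The probe set shared by Hspa1a and Hspa1b differed by 0.02.

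Hspa8, Hspa5 and Hspa9, the constitutive members of the family, had differences within 0.1 of 0. Hspa8, the housekeeping HSC70 of the cytosol, read 12.54, 12.54, 12.57 and 12.63 in IL6raKO replicates 1 to 4, against 12.59, 12.68, 12.60 and 12.51 in Ctrl replicates 1 to 4. Its difference was -0.03 (95% confidence interval -0.16 to 0.11), with the groups overlapping, and it was -5.5e-05 without Ctrl replicate 2. Hspa5, the endoplasmic reticulum chaperone BiP, averaged 11.25 ± 0.06 in IL6raKO and 11.29 ± 0.02 in Ctrl (SD, n = 4 each), a difference of -0.04 (95% confidence interval -0.17 to 0.09) that was -0.01 without IL6raKO replicate 1. Hspa9, the mitochondrial HSP70 mortalin, averaged 10.67 ± 0.06 in IL6raKO and 10.66 ± 0.03 in Ctrl (SD, n = 4 each), a difference of 0.0076 (95% confidence interval -0.12 to 0.14) whose sign turned with the scaling (-0.0071 after quantile normalization applied again). Of the 13 HSP70 and HSP110 genes, 8 differences were above 0 and 12 genes had an unadjusted p of 0.05 or more, with a median of 0.0082.

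The 3 HSP110 exchange factors had differences above 0 that did not pass. Hsph1, the stress-inducible HSP110, read 9.08, 8.97, 9.27 and 9.02 in IL6raKO replicates 1 to 4, against 8.85, 8.92, 9.10 and 8.86 in Ctrl replicates 1 to 4. IL6raKO replicate 3 was the highest of the 8 arrays and Ctrl replicate 3 the second highest, so the groups overlapped. The difference was 0.15 (SE 0.08, 95% confidence interval -0.03 to 0.33, limma adjusted p = 0.718). Leaving out Ctrl replicate 3, singled out by its value, removes the overlap by construction. The difference was then 0.21, with an unadjusted limma p under 0.05, beside 2.68% of all genes higher at that p. Without IL6raKO replicate 3 it was 0.09. Hspa4l and Hspa4, its relatives, differed by 0.11 (adjusted p = 0.745 in limma) and 0.03.

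**Figure D3:**
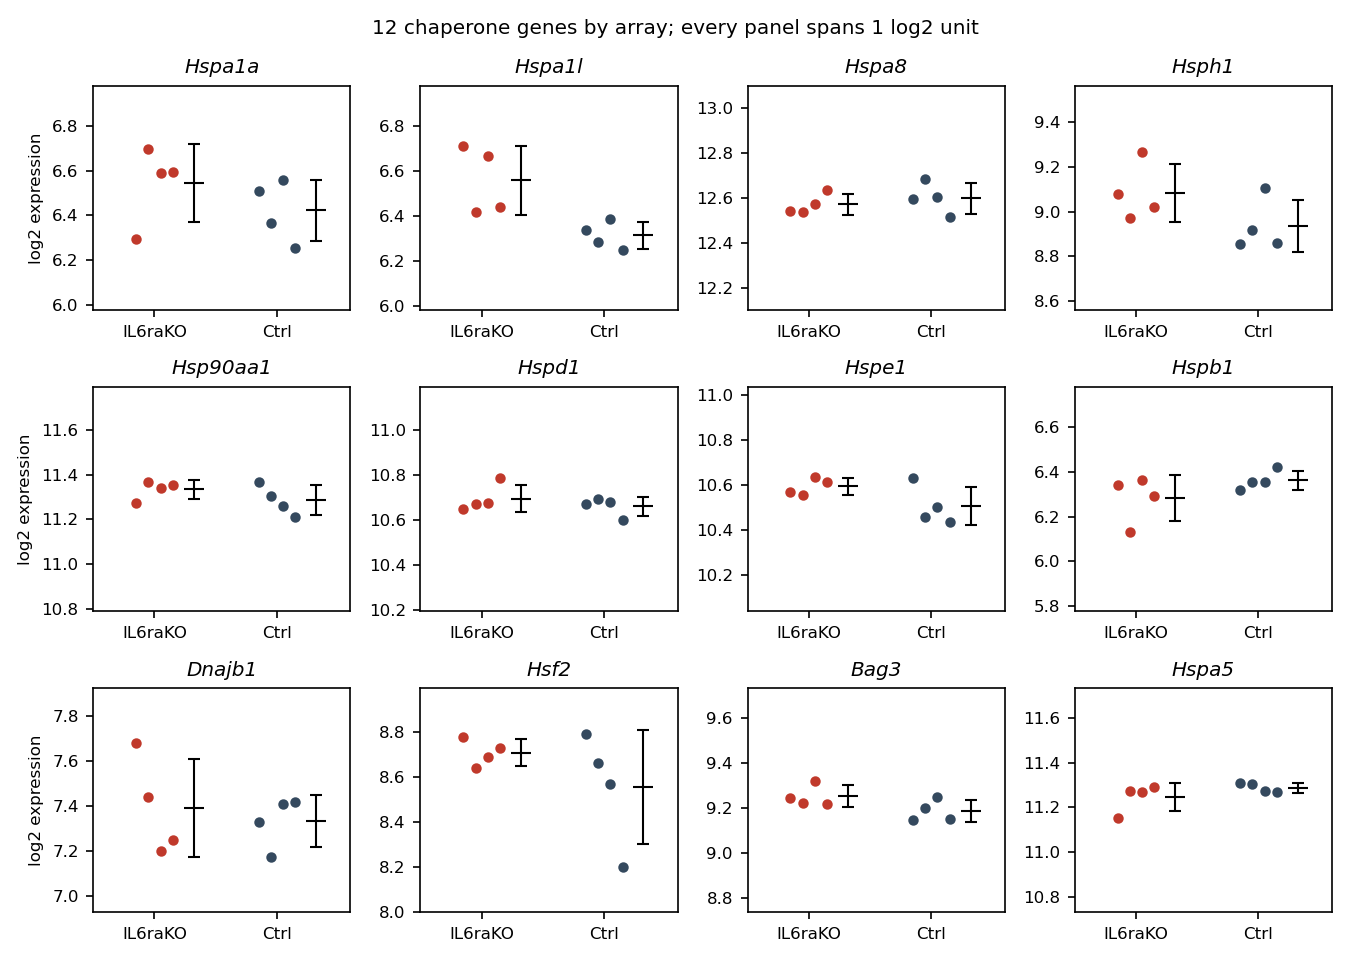
Log2 expression (vertical axis, each panel spanning 1 log2 unit) of 12 chaperone genes on the 4 IL6raKO and 4 Ctrl arrays, as points in replicate order, with the mean and SD beside each group. Groups overlap in each panel but that of Hspa1l, and Ctrl replicate 4 is the low point of Hsf2 at 8.20.

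HSP90 genes and those of the mitochondrial chaperonin had differences between 0.02 and 0.09. Hsp90aa1, the inducible cytosolic HSP90, read 11.27, 11.37, 11.34 and 11.35 in IL6raKO replicates 1 to 4, against 11.37, 11.30, 11.26 and 11.21 in Ctrl replicates 1 to 4. Its difference of 0.05 (95% confidence interval -0.08 to 0.18) was within the spread between replicates, and it was 0.02 without Ctrl replicate 4. Hsp90b1, the endoplasmic reticulum form that folds Toll-like receptors, averaged 12.39 ± 0.04 in IL6raKO and 12.37 ± 0.06 in Ctrl (SD, n = 4 each), a difference of 0.02 (95% confidence interval -0.11 to 0.15). Hspd1 and Hspe1, which encode the barrel (HSP60) and the lid (HSP10) of the mitochondrial chaperonin, differed by 0.03 (95% confidence interval -0.10 to 0.17) and 0.09 (95% confidence interval -0.05 to 0.23). That of Hspd1 was 0.01 without Ctrl replicate 4 and 0.0045 without IL6raKO replicate 4. For Hspe1, 3 Ctrl arrays at 10.44 to 10.50 lay below all IL6raKO arrays (10.56 to 10.64), while Ctrl replicate 1 at 10.63 lay among them.

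Small heat shock proteins, which hold unfolded proteins without ATP, showed no common direction, with 4 of 7 differences above 0 and a median of 0.0063. Hspb1, known as HSP25 in mouse, read 6.34, 6.13, 6.36 and 6.29 in IL6raKO replicates 1 to 4, against 6.32, 6.35, 6.35 and 6.42 in Ctrl replicates 1 to 4. IL6raKO replicate 2 was the lowest array and Ctrl replicate 4 the highest, a difference of -0.08 (95% confidence interval -0.23 to 0.07) that was -0.03 without IL6raKO replicate 2. Hspb2 had the highest difference of the class at 0.09, or 0.02 without Ctrl replicate 2, and Hspb8, the small heat shock protein that works with BAG3, differed by 0.0063 (95% confidence interval -0.18 to 0.19). Of the 3 genes that only share the name, Hspb11 read 6.15, 6.38, 6.37 and 6.33 in IL6raKO replicates 1 to 4, against 6.37, 5.85, 5.82 and 6.05 in Ctrl replicates 1 to 4. Ctrl replicate 1 lay among the IL6raKO arrays and the other Ctrl arrays below them. The Hspb11 difference was 0.29 (95% confidence interval 0.04 to 0.53, limma adjusted p = 0.669), and 0.40 without Ctrl replicate 1. Hspbp1 differed by -0.14 (95% confidence interval -0.28 to 0.01).

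The BAG genes, whose products release clients from HSP70, went either side of 0. Bag3, a stress-inducible adaptor of chaperone-assisted autophagy, read 9.24, 9.22, 9.32 and 9.22 in IL6raKO replicates 1 to 4, against 9.15, 9.20, 9.25 and 9.15 in Ctrl replicates 1 to 4, a difference of 0.07 (95% confidence interval -0.06 to 0.19). Bag1 read 10.40, 10.50, 10.48 and 10.50 in IL6raKO replicates 1 to 4, against 10.54, 10.50, 10.51 and 10.61 in Ctrl replicates 1 to 4. The highest IL6raKO array lay below the lowest Ctrl array by less than 0.01, and the difference was -0.07 (95% confidence interval -0.20 to 0.06, limma adjusted p = 0.814). After quantile normalization applied again the groups of Bag1 overlapped.

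DnaJ cochaperones made up 45 of the 75 genes. In the DNAJA class, the members of which most resemble the bacterial DnaJ protein, Dnaja1 averaged 11.52 ± 0.04 in IL6raKO and 11.46 ± 0.14 in Ctrl (SD, n = 4 each) and differed by 0.06 (95% confidence interval -0.10 to 0.23), or by 0.0094 without Ctrl replicate 4. Dnaja4, at the other end of the class, differed by -0.08, or by -0.04 without IL6raKO replicate 3. Dnajb1, the stress-inducible HSP40, read 7.68, 7.44, 7.20 and 7.25 in IL6raKO replicates 1 to 4, against 7.33, 7.17, 7.41 and 7.42 in Ctrl replicates 1 to 4. The spread between IL6raKO arrays was wider than any gap between the groups, and the difference of 0.06 (95% confidence interval -0.17 to 0.29) was -0.04 without IL6raKO replicate 1.

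Within the DNAJB class the differences lay between -0.12 (Dnajb8) and 0.19 (Dnajb7, 0.09 without IL6raKO replicate 3), and 0 of 13 had an unadjusted p under 0.05. Dnajb9, an endoplasmic reticulum cochaperone of BiP induced by the unfolded protein response, read 9.14, 9.13, 9.05 and 9.19 in IL6raKO replicates 1 to 4, against 9.17, 8.99, 9.01 and 8.74 in Ctrl replicates 1 to 4. Ctrl replicate 4 was the low point, Ctrl replicate 1 lay among the IL6raKO arrays, and the difference, 0.15 (95% confidence interval -0.04 to 0.34, limma adjusted p = 0.728), was 0.07 without Ctrl replicate 4. Dnajb13, a protein of motile cilia and sperm tails, differed by 0.14 (95% confidence interval -0.02 to 0.29), or by 0.08 without Ctrl replicate 2. Dnajb11, another cochaperone of BiP, differed by 0.05, and Dnajb6, which suppresses protein aggregation, by 0.08.

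In the DNAJC class, whose members share little beyond the J domain, 2 of 28 had an unadjusted p under 0.05 (beside 7.28% of all genes). Dnajc6, the clathrin uncoating factor auxilin, read 5.87, 5.81, 6.01 and 5.85 in IL6raKO replicates 1 to 4, against 5.97, 6.12, 6.10 and 6.02 in Ctrl replicates 1 to 4. IL6raKO replicate 3 lay between Ctrl replicates, and the other IL6raKO arrays below all Ctrl arrays. The difference of -0.17 (95% confidence interval -0.31 to -0.02) had an unadjusted limma p of 0.0296 and an adjusted p of 0.669. Dnajc5g, a relative of the cysteine string protein gene Dnajc5, read 5.57, 5.67, 5.51 and 5.78 in IL6raKO replicates 1 to 4, against 5.74, 5.76, 5.96 and 5.82 in Ctrl replicates 1 to 4. IL6raKO replicate 4 lay within the Ctrl range, and the difference was -0.19 (95% confidence interval -0.35 to -0.02, adjusted p = 0.669 in limma). Dnajc5b, another relative, differed by -0.14 (95% confidence interval -0.36 to 0.08), and Dnajc5 itself by -0.01 (95% confidence interval -0.15 to 0.12). At the upper end of the class Dnajc21, a factor of ribosome assembly, differed by 0.11 (95% confidence interval -0.03 to 0.25).

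Sets of genes picked by compartment also gave no call, and other members that work in the same compartments were not counted in them. The 8 genes picked for the endoplasmic reticulum (Hspa5, Hspa13, Hsp90b1, Dnajb9, Dnajb11, Dnajc1, Dnajc3 and Dnajc10) had a median difference of 0.01, from -0.04 for Dnajc10 to 0.15 for Dnajb9. The 9 genes picked for the mitochondrion (Hspa9, Hspd1, Hspe1, Dnaja3, Dnajc11, Dnajc15, Dnajc19, Dnajc28 and Dnajc30) likewise had a median of 0.01, from -0.04 for Dnajc30 to 0.11 for Dnajc19, a component of mitochondrial protein import. In both sets 0 genes had an unadjusted p under 0.05 in limma.

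Cultures of 1 genotype differed among themselves as well. The SD between replicates, pooled over the groups, had a median of 0.10 over the 75 genes and ran from 0.04 to 0.24, beside a median of 0.11 over all genes. Ctrl replicate 4 held the lowest of the 8 values for 21 of the 75 genes (28%), beside 15.1% of all genes, and the highest for 10 of the 75 (13.3%), beside 23.6% of all genes. IL6raKO replicate 4 was the lowest array for 2 of the 75 genes (2.67%), beside 11.9% of all genes. The median deviation of the 75 genes from their means over all arrays was 0.000035, -0.0011, 0.01 and 0.04 in IL6raKO replicates 1 to 4, against 0.0081, -0.0040, 0.0043 and -0.04 in Ctrl replicates 1 to 4. For the 8 genes picked above for the endoplasmic reticulum the other 7 arrays had medians of -0.02 to 0.04, while that of Ctrl replicate 4 was -0.10.

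**Figure D4:**
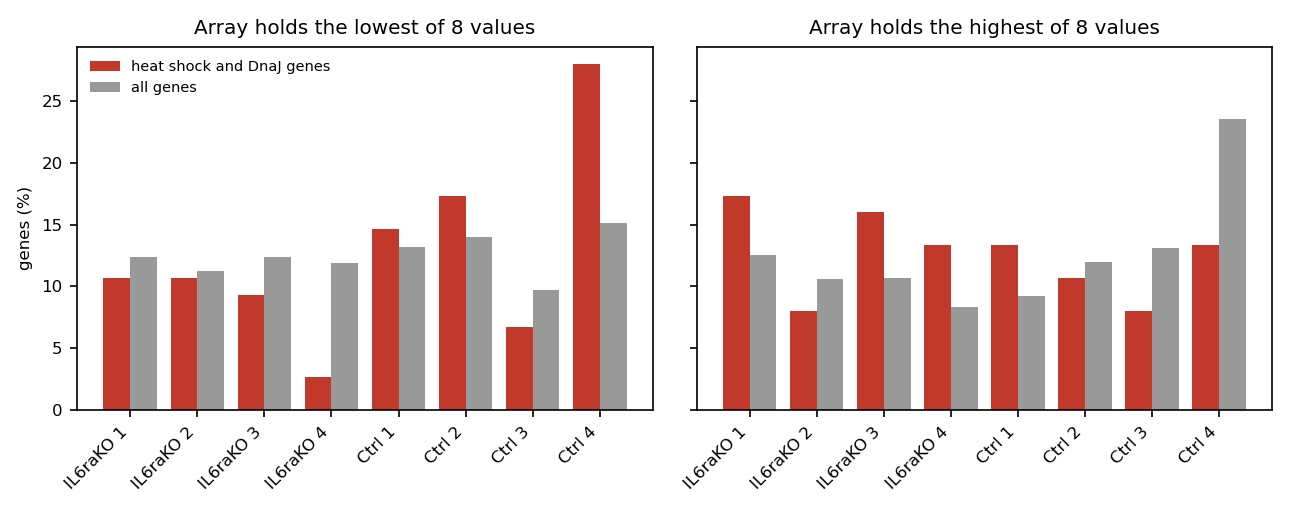
Share of genes (vertical axis, percent) for which each array holds the lowest (left) or the highest (right) of the 8 values, for the 75 heat shock and DnaJ genes and for all genes. Ctrl replicate 4 is the lowest array for 28% of the 75 genes and for 15.1% of all genes.

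Heat shock genes, the constitutive Hspa8 among them, did not vary with Hspa1a closely enough across the 8 cultures to pass a test. Every relation used the probe set named for Hspa1a alone, at 6.26 to 6.70, on which Ctrl replicate 4 was the lowest array. On the brighter probe set shared with Hspa1b that array was the highest, at 7.94, and relations with the shared probe set were not analysed here. Over 9 relations with Hspa1a, Pearson's r ran from -0.70 for Hspb1 to 0.76 for Hsp90aa1. The relation with Hsp90aa1 had r = 0.76 (exact permutation p = 0.0341, two-sided, 0.154 adjusted over the 9) and Spearman's rho = 0.74 (exact permutation p = 0.0458, adjusted 0.413) over n = 8. Without IL6raKO replicate 1 and Ctrl replicate 4, the arrays farthest from the median of Hspa1a, r was 0.42. Leaving out such arrays also narrows the range of Hspa1a, and their part in the relation was not tested. The relation with Hspb1 had r = -0.70 (exact permutation p = 0.0295, adjusted 0.154), rho = -0.60 (exact permutation p = 0.132, adjusted 0.547) and r = -0.67 without these 2 arrays. For Hsph1, Hspe1, Hspd1, Bag3, Dnaja1, Hspa8 and Dnajb1, r lay between -0.33 and 0.56, with adjusted exact permutation p of 0.378 or more. Without the same 2 arrays r turned to -0.86 for Hspa8, in place of 0.13, to 0.61 for Dnajb1, in place of -0.33, and to -0.14 for Dnaja1, in place of 0.32, and it was 0.03 for Hspd1, in place of 0.54. These 8 arrays span both genotypes, and 4 arrays of 1 genotype are too few to give the relation within it.

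Several of these genes are measured by more than 1 probe set, and the choice of the brightest one matters for what is read. Of the 75 genes, 8 had 2 or more probe sets. For Hsp90aa1, Hspd1, Hspe1, Hspb1 and Dnaja1 the brightest probe set was numbered among probe sets of another chromosome than the gene's own (at least 17 of the 20 nearest named probe sets), which was so for 1.85% of all genes. The probe sets numbered within the gene's own chromosome gave these values: Hsp90aa1 differed by 0.04 there, against 0.05 on the brightest, Hspd1 by 0.04 against 0.03, Hspe1 by 0.07 against 0.09, Hspb1 by -0.10 against -0.08, and Dnaja1 by 0.0023 against 0.06. The 15 probe sets of Dnajc13, an endosomal DnaJ protein, ran from -0.05 to 0.17, with 6 above 0 and 9 below. Using the probe sets within the own chromosome for all genes, chosen after seeing the data, gave 0 called genes among the 75.

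**Figure D5:**
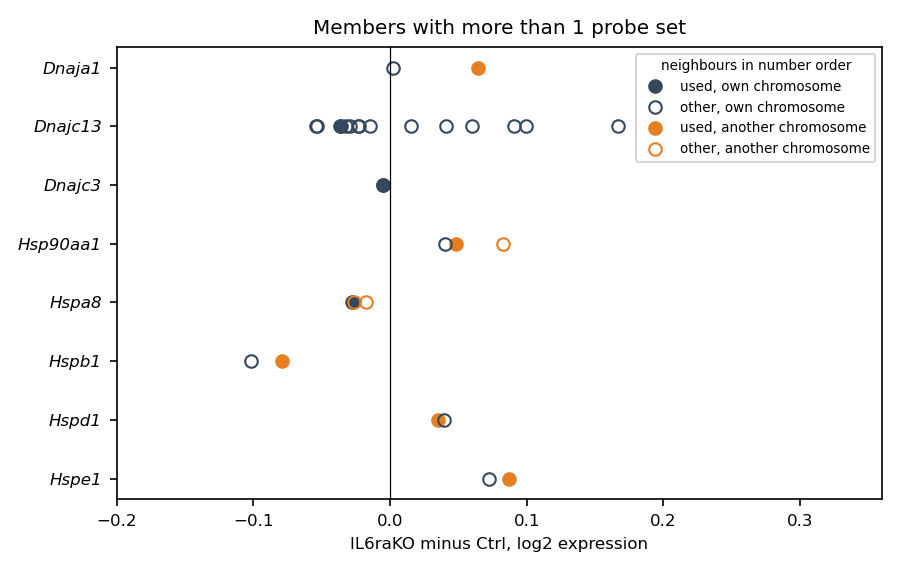
Difference, IL6raKO minus Ctrl in log2 expression (horizontal axis), of every probe set of the 8 genes with more than 1. Filled points are the brightest probe sets used, and orange marks probe sets numbered among those of another chromosome. The 15 points of Dnajc13 reach from -0.05 to 0.17.

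Partners of the chaperone system outside the 75 genes were counted in 5 lists, and 0 genes of them passed over all genes in limma. Their counts at an unadjusted p under 0.05 stand beside 7.28% of all genes. Of 21 HSP90 cochaperones, 1 had an unadjusted p under 0.05, Ahsa1, an activator of the HSP90 ATPase, which differed by 0.16 (SE 0.07), and Ttc4 differed by 0.16 and Rpap3 by -0.18 (list median 0.03). Of 12 further HSP70 cochaperones 0 did, with Grpel2, a mitochondrial exchange factor, at 0.12, Bag2 at -0.17 and Hscb at 0.09 (median 0.03). Of 14 TRiC and prefoldin subunits, which fold actin and tubulin, 1 did, Pfdn4 at 0.22 (SE 0.08), beside Pfdn1 at -0.17 and Pfdn5 at -0.10 (median 0.0044). Of 16 genes of endoplasmic reticulum folding 1 did, the collagen chaperone gene Serpinh1 at -0.23 (SE 0.09), beside Pdia4 at 0.19 and Atf4 at 0.15 (median 0.02).

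The list of other heat shock factors and known targets of HSF1 held the most genes of low p. It leaves out the heat shock and DnaJ genes described above. Of its 12 measured genes of 15 entries, 4 had an unadjusted p under 0.05 in the lower direction, beside 4.54% of all genes, and 1 in the higher, beside 2.74%. These 5 were 2 with the replicate number as a block and 3 after quantile normalization applied again. The 4 were Serpinh1, Hmox1 (heme oxygenase 1, difference -0.17, SE 0.07), Hsf5 (-0.18, SE 0.07) and the metallothionein gene Mt1 (-0.15, SE 0.06), and the 1 was Ahsa1. Their adjusted p lay at 0.658 or more in limma, and the list median was -0.12. Hmox1 and Mt1 also answer to oxidative and metal stress, and Serpinh1, Ahsa1, Stip1 and Chordc1 stand in other lists above too, so these counts are not separate. Stip1, the cochaperone that joins HSP70 to HSP90, differed by 0.06, and Chordc1 by 0.15 (SE 0.15). Hsf5 is listed as a factor, not a target, with means of 5.26 in IL6raKO and 5.44 in Ctrl. Of the inducible genes left out, Hsph1 (0.15), Hspa1a (0.12), Bag3 (0.07), Dnajb1 (0.06) and Hsp90aa1 (0.05) lay above 0. Hspb1 (-0.08) lay below it, and none of these had an unadjusted p under 0.05 in limma. The list median therefore does not give the direction of HSF1 targets as a whole.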

How the data were processed

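The authors deposited log2 values of 35556 probe sets on 8 arrays. RMA, which corrects background, normalizes by quantiles and sums up the probes of a set, and R 2.13.1 are named per the submitters' processing notes. The log2 scale was read from the range (1.96 to 14.2). The genome build was not given in the sources used here. RMA compresses differences of dim probe sets.

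GEO's platform annotation gave 21789 probe sets 1 gene symbol, 1621 several and 12146 none, and the brightest probe set over the 8 arrays stood for each gene. IL6raKO was compared with Ctrl in limma 3.58.1 (R 4.3.3, lmFit and eBayes, no covariate, no filter), with Benjamini-Hochberg adjustment over 19938 genes, two-sided. The fit was tested on simulated data.

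Members and lists were chosen with earlier results of these data known. Named genes are 15 members of known role, the 6 of lowest p in each direction, the ends of each role class, Il6ra, Stat3 and the 3 of lowest p in each list. Compartments, motifs and other examples were chosen after their values were seen. The labels number the replicates alike in both groups, and the fit reported has no block. Alternatives were a trended robust variance, the replicate block, 2 filters, 2 scalings, array weights, other probe sets and each array left out.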

Additional observations from a re-analysis of the deposited data

Results flagged for a closer look

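In each genotype, the 4 values of each of the 75 genes were searched for an array far from the other 3. Of 150 such sets of 4 values, 12 held one, where chance gives about 7.5 (1 in 20). IL6raKO replicate 1 held 6 of them. There, Bag1 was at 10.40, and between 10.48 and 10.50 in the other 3 arrays of the group. Dnajb2 was at 5.89, and between 5.75 and 5.76 in the other 3 arrays of the group. Dnajc11 was at 7.24, and between 7.39 and 7.41 in the other 3 arrays of the group. Dnajc4 was at 7.27, and between 7.65 and 7.72 in the other 3 arrays of the group. Dnajc9 was at 8.55, and between 8.39 and 8.40 in the other 3 arrays of the group. Hspa5 was at 11.15, and between 11.27 and 11.29 in the other 3 arrays of the group. In IL6raKO replicate 3, Dnajc16 was at 8.02, and between 7.77 and 7.80 in the other 3 arrays of the group. Dnajc8 was at 8.95, and between 8.66 and 8.71 in the other 3 arrays of the group.

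In Ctrl replicate 4, Dnajc30 was at 7.69, and between 7.17 and 7.18 in the other 3 arrays of the group. Dnajc4 was at 7.75, and between 7.50 and 7.51 in the other 3 arrays of the group. Hspb9 was at 6.73, and between 6.57 and 6.58 in the other 3 arrays of the group. In Ctrl replicate 3, Hspa9 was at 10.71, and between 10.64 and 10.65 in the other 3 arrays of the group. Without the array concerned, the genotype difference of Dnajc30 was 0.09 in place of -0.04, that of Dnajc8 -0.0097 in place of 0.06, that of Hspa5 -0.01 in place of -0.04, that of Dnajc9 0.0069 in place of 0.04, that of Bag1 -0.05 in place of -0.07, that of Dnajb2 -0.06 in place of -0.02, that of Hspb9 -0.04 in place of -0.08, that of Hspa9 0.02 in place of 0.0076, that of Dnajc16 -0.04 in place of 0.02 and that of Dnajc11 0.03 in place of -0.0081. For Dnajc4 it was 0.11 without IL6raKO replicate 1 and 0.07 without Ctrl replicate 4, in place of 0.0094. With the array concerned left out, the limma adjusted p of these genes was 0.847 or more.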

How the results depend on the processing

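In limma, 0 of the 75 genes were called over all genes in the fit of all arrays, in all 9 alternatives that keep the 8 arrays and with any 1 array left out. At an unadjusted p under 0.05 there were 4 of them with all arrays, beside 7.28% of all genes. There were 2 to 5 in the alternatives, beside 6.67% to 8.85% of all genes fitted, and 2 to 8 with 1 array left out, beside 5.71% to 8.98%. The count of called genes in the whole table, 6, was 22 with a trended and robust variance model, 11 among genes above the median level, 11 among those above the 25th percentile, and 0 with the replicate number as a block. The replicate numbers did not pair the arrays (correlation of same-numbered deviations from -0.01 to 0.04). With the replicate block 1 of the 75 was lower and 2 higher at an unadjusted p under 0.05, beside 4.58% and 2.72% of all genes.

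The count at an unadjusted p under 0.05, 2 lower and 2 higher, was 1 and 1 among genes above the median level, where 58 of the 75 remain, beside 3.23% and 5.03% of all such genes. It was 0 lower after quantile normalization applied again, beside 3.36% of all genes. It was 1 higher without the 3 genes taken by name only. With any 1 array left out it ranged from 0 to 2 lower and from 1 to 6 higher, the 6 being without Ctrl replicate 1 (Dnajb7, Dnajb9, Dnajc19, Hsf2, Hspa1l and Hspb11, beside 3.26% of all genes). Genes without overlap, 1 below and 1 above, were 0 and 2 after quantile normalization, beside 1.96% and 2.03% of all genes. With centring on the 75th percentile they were 4 below and 1 above, beside 4.21% and 0.958% of all genes. They ranged from 1 to 3 below and from 1 to 8 above with 1 array left out, and the 8 was again without Ctrl replicate 1, beside 3.98% of all genes. Called genes in the whole table were then 0 to 1.

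Centring on the 75th percentile shifts every gene alike: the median difference, 0.02, was then -0.0028, and that of all genes -0.04 in place of -0.0097. The gap between them, 0.034, cannot change under such a shift, and it was 0.018 after quantile normalization. Of 29 named members, 26 kept their direction in every setting that held them, and some fell out above the median level. The trended variance, the replicate block and the 2 filters leave each difference unchanged, so only the other settings could turn a direction. Hspa9 turned to -0.0071 after quantile normalization and -0.0195 with centring (the shift of all genes), and lay between -0.0105 and 0.0364 with 1 array left out. Hsp90b1 was at -0.0060 with centring through that shift and lay between -0.0024 and 0.0427, and Dnajb1 between -0.0374 and 0.12. The cause was not tested. Of the 12 genes of the HSF1 list, 2 had an unadjusted p under 0.05 with the replicate block and 3 after quantile normalization, in place of 5.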

Other observations

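Probe sets that name a member together with another gene were left out of the counts and are given as values. The 4 shared by Dnajb6 and the gene model Gm4247 differed by 0.13 to 0.15 (IL6raKO minus Ctrl), at 10.56 to 10.89 in IL6raKO, 10.25 to 10.47 in Ctrl replicate 4 and 10.43 to 10.84 in the other Ctrl arrays. The Dnajb6 probe set of its own differed by 0.08, with Ctrl replicate 4 at 7.93, inside the range of the other Ctrl arrays. The 2 shared by Hspa8 and the small nucleolar RNA genes Snord14c and Snord14d, which lie in introns of Hspa8, differed by 0.11, while the Hspa8 probe set of its own differed by -0.03. They read 9.41 to 9.65 in IL6raKO, 9.26 to 9.28 in Ctrl replicate 4 and 9.41 to 9.54 in the other Ctrl arrays. The 2 shared by Dnajb14 and Pin4 differed by 0.03.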
